A study of Mus musculus with 2 samples.

Results

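The actin cytoskeleton genes described here are Actb, Actg1, Cfl1, Pfn1, Tmsb4x, Arpc2, Coro1a, Lcp1, Capg and Msn. They are 10 of 22180 genes named on the array, and all 10 were found by symbol in the platform annotation. For each, the array feature with the highest mean signal was used, a feature being a group of probes that the platform treats as 1 transcript. The cells were alveolar macrophages, the resident phagocytes of the air spaces, isolated by cell sorting from mouse lungs. The series held 2 Affymetrix arrays. The first is labelled Lysm-Cre Ssu72fl/fl, from mice with both copies of Ssu72 floxed and with Lysm-Cre. The second is labelled Lysm-Cre, from mice whose label names Cre and no floxed allele. Mice were 8 to 10 weeks old. Both groups thus carried the Cre recombinase expressed from the lysozyme locus, which is active in myeloid cells at large and not in alveolar macrophages alone. The sources used here do not give the number of mice per array.

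Actin exists as single molecules (G-actin) and as filaments (F-actin), and macrophages turn filaments over quickly to spread, crawl and engulf particles. Profilin and beta-thymosins hold the monomer pool, the Arp2/3 complex starts branched filaments, cofilin cuts old ones, capping proteins end their growth, plastins bundle them and moesin ties them to the plasma membrane. Beta- and gamma-actin, the 2 non-muscle actins, are near-identical proteins encoded by separate genes, and Actb is often used as a loading control.

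With 1 array per genotype there is no replicate check, and no test between the genotypes was possible. Values are log2 signals as deposited, and each difference is the array labelled Ssu72fl/fl minus the Lysm-Cre array. How the authors scaled the signals is unknown, so a difference may understate or overstate the true change. Compared genes are those above the floor on 1 or both arrays, the floor being the median of all values (4.65). Each gene is set against a local spread, the robust SD of differences over the 100 compared genes nearest to it in mean signal. That scatter is between genes and not between animals. Ssu72 itself was not lower on the array labelled for its floxed allele: it read 4.998 on the array labelled Ssu72fl/fl and 4.862 on the Lysm-Cre array, a difference of 0.14 with a local spread of 0.14. The Ssu72 feature stood only 0.21 above the floor on the Lysm-Cre array, and why no loss was read was not tested. Whether its probes lie in the deleted part was not analysed here, so every direction below rests on the label. The difference also moved with signal over the whole array. Its median was 0.0080 for genes at levels 4 to 5, -0.19 at 6 to 7, -0.42 at 7 to 8 and -0.49 at 8 to 9. Differences are therefore also given after removal of this trend and are then called level-adjusted.

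All 10 genes read lower on the array labelled Ssu72fl/fl, by amounts from -0.018 to -0.81, with a median of -0.39. Among all 13015 compared genes, 51.9% were lower and the median was -0.0068. Of the 10 genes, 9 had a mean signal over 6, and among the 856 compared genes over 6 the share lower was 77.0% and the median -0.28. The median of those 9 genes was -0.45. As deposited, only Arpc2 and Msn reached 1.5-fold, against 1.37% of all compared genes and 15.1% of those over 6. The 1.2-fold mark was reached by 6 genes, each with a mean signal over 6, against 51.3% of the genes over 6. The share of all compared genes at that mark was not computed. The 2-fold mark was reached by 0, against 0.0845% of all compared genes and 1.17% of those over 6. After level adjustment the common direction was gone. The median was then -0.13, and 6 of the 10 genes lay below 0 and 4 above, while 46.4% of the 856 genes were lower.

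**Figure D1:**
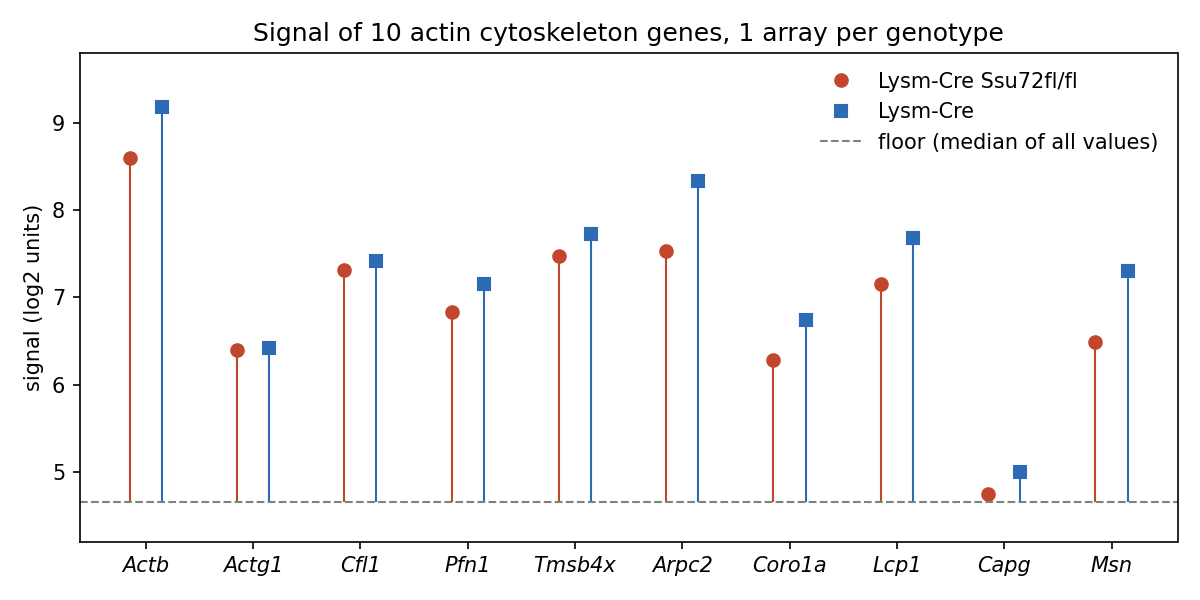
Deposited log2 signal (vertical axis) of the 10 genes on the array labelled Lysm-Cre Ssu72fl/fl (circles) and the Lysm-Cre array (squares), 1 array each, with the floor as a dashed line. The Lysm-Cre symbol is the higher one for every gene, the symbols of Actg1 and Cfl1 almost meet, and Capg lies just above the floor.

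The beta-actin feature had the best rank of the 10 on both arrays, where a rank orders probe signals and not amounts of transcript. Actb, read by a single feature, stood at 8.60 on the array labelled Ssu72fl/fl (rank 184 of 33793 features) and 9.18 on the Lysm-Cre array (rank 165). Its difference of -0.58 left it at 66.9% of the Lysm-Cre signal, just short of 1.5-fold. At this level most genes read lower too: of the 100 nearest genes 96 were below 0, and 32 had a lower difference than Actb. Level-adjusted, its difference was -0.17, inside the local spread of 0.29.

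Gamma-actin depended on which feature was read. The gene was named by 7 features, written here as features 1 to 7 by falling mean signal. Feature 1, the one chosen, read 6.40 on the array labelled Ssu72fl/fl and 6.42 on the Lysm-Cre array, a difference of -0.018. Feature 2 had identical values on both arrays, so the pair counts as 1 measurement. Neither lies by feature number near the Actg1 locus of chromosome 11: feature 1 sits between features for Zfp654 and Htr1f of chromosome 16, and feature 2 between Cfap97 and Cenpu with Primpol of chromosome 8. Of the 7 features, feature 4 alone is flanked on both sides by genes next to Actg1, namely 2810410L24Rik and Faap100. Feature 4 read 5.83 on the array labelled Ssu72fl/fl and 5.68 on the Lysm-Cre array, so that it was higher by 0.15, within a local spread of 0.24. The others ran from -0.35 (feature 5) and -0.26 (feature 3) through -0.014 (feature 6) to 0.12 (feature 7, which also names Gm12739). Signals of near-identical copies cannot be told apart here, and the direction of Actg1 is uncertain.

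**Figure D2:**
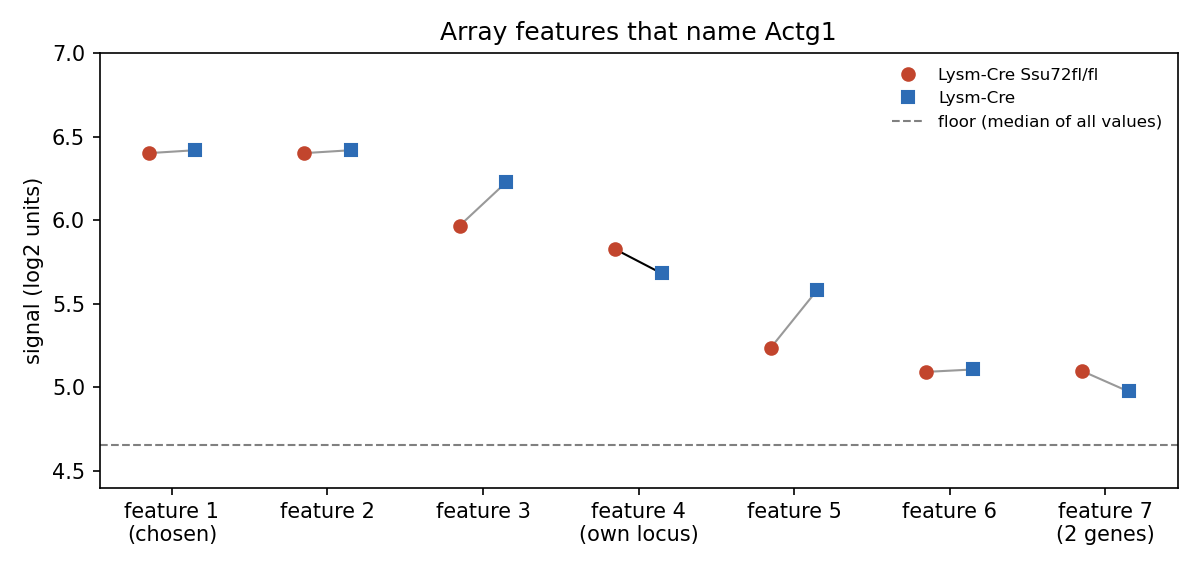
Log2 signal (vertical axis) of the 7 features that name Actg1 on the array labelled Lysm-Cre Ssu72fl/fl (circles) and the Lysm-Cre array (squares), joined by lines. Features 1 and 2 are identical and nearly flat, features 3 and 5 are lower on the array labelled Ssu72fl/fl, and feature 4, at the gene's own locus, and feature 7 are higher.

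The muscle actins, which share much of their coding sequence with the non-muscle forms, did not follow Actb. Acta2, of smooth muscle, read 5.76 on the array labelled Ssu72fl/fl and 5.49 on the Lysm-Cre array (0.27, local spread 0.23). Actc1, of heart, read 5.09 on the array labelled Ssu72fl/fl and 4.79 on the Lysm-Cre array (0.30, local spread 0.14). Actg2, of visceral muscle, read 4.94 on the array labelled Ssu72fl/fl and 4.66 on the Lysm-Cre array (0.28, local spread 0.11). These 3 were above 0 by more than their local spread, and Acta1, of skeletal muscle, was not (-0.043). Of 8 other compared smooth muscle and fibroblast markers 7 were lower as deposited, against 51.9% of all compared genes. Level-adjusted, 7 were also lower, against 46.4% of all. Among them were Myh11 (-0.17) and Tagln (-0.17), while Des read 4.72 on both arrays. Cnn1, the smooth muscle calponin, was the 1 that was higher (0.15, local spread 0.12). The summed log2 level of these 8 was 39.6 on the array labelled Ssu72fl/fl and 40.4 on the Lysm-Cre array, with single genes from 4.61 to 5.42 on the array labelled Ssu72fl/fl and from 4.69 to 5.77 on the Lysm-Cre array, and their part in the muscle actin values was not tested.

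The monomer-binding genes of the group were lower by less than their signal neighbours. Tmsb4x, the thymosin that sequesters G-actin, read 7.48 on the array labelled Ssu72fl/fl and 7.73 on the Lysm-Cre array, a difference of -0.25. Pfn1, the profilin that feeds monomers to growing ends, read 6.83 on the array labelled Ssu72fl/fl and 7.15 on the Lysm-Cre array, a difference of -0.32. The median of the 100 nearest genes was -0.43 for Tmsb4x and -0.41 for Pfn1, so both lay above it, by 0.18 and 0.085, and both within their local spreads of 0.31 and 0.27. The second thymosin, Tmsb10, read 5.59 on the array labelled Ssu72fl/fl and 5.49 on the Lysm-Cre array (0.10), and Pfn2 was below the floor on both. Over the 8 compared genes of this role 5 were lower and 3 higher (median -0.15), against 51.9% lower among all compared genes, and level-adjusted 2 were lower and 6 higher (median 0.093), against 46.4% lower among all. Cap1, a partner of cofilin in recycling actin, was lowest (-0.59, local spread 0.25), followed by the monomer-binding Twf1 (-0.42), and Cap2 was highest (0.37, local spread 0.12).

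Cofilin stood at the upper edge of the group. Cfl1 read 7.32 on the array labelled Ssu72fl/fl (rank 447) and 7.42 on the Lysm-Cre array (rank 553), a difference of -0.10. Although its signal was lower, its rank was better on the array labelled Ssu72fl/fl, since other genes at that level were lower still: 84 of its 100 neighbours had a lower difference, and its level-adjusted difference was 0.31 against a local spread of 0.30. Its relative Dstn, destrin, read 6.68 on the array labelled Ssu72fl/fl and 6.98 on the Lysm-Cre array (-0.30), and Cfl2 was below the floor on both. Of 15 compared genes for severing and turnover 10 were lower (median -0.10), against 51.9% of all compared genes. After level adjustment 8 were lower, against 46.4% of all. Gsn, the severing protein gelsolin, was lowest at 5.50 on the array labelled Ssu72fl/fl and 6.10 on the Lysm-Cre array (-0.60, local spread 0.25), with Gmfb (-0.37) and Flii (-0.30) next. Ssh3 (0.11) and Ssh1 (0.10), phosphatases that activate cofilin, were highest.

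The largest differences in the group were those of Msn and Arpc2. Arpc2, a core subunit of the Arp2/3 complex, read 7.53 on the array labelled Ssu72fl/fl (rank 377) and 8.34 on the Lysm-Cre array (rank 288). That is a difference of -0.81, or 57.0% of the Lysm-Cre signal, and rank 39 from the lowest among all 13015 compared genes. Of the 100 genes nearest in signal, 8 were lower still. It lay -0.37 below their median, beyond the local spread of 0.29. Other subunits were lower by less: Actr3 (Arp3) read 6.73 on the array labelled Ssu72fl/fl and 7.24 on the Lysm-Cre array (-0.51), Arpc4 was at -0.20, Arpc5 at -0.10 and Arpc1a at -0.061. All 5 compared subunits were thus below 0, against 51.9% of all compared genes and 77.0% of those with a mean signal over 6. Of 10 subunits listed only 6 were named on the array, and 1 of these was below the floor on both arrays. Arpc2 and Arpc4 differed by -0.61, more than their combined local spread of 0.43, whereas Arpc2 and Actr3 differed by -0.30, less than their combined local spread of 0.39. Over the 12 gene pairs computed, which were picked after values were seen, 6 differed by more than their combined local spread as deposited. Gaps between genes of unlike signal hold part of the level trend, and no share over other gene pairs was computed. Level-adjusted, 2 of the 5 compared subunits were lower and 3 higher, against 46.4% lower among all compared genes. Among 17 compared activators of the complex 9 were lower and 8 higher, against 51.9% lower among all compared genes. Level-adjusted, 8 activators were lower and 9 higher, against 46.4% lower among all. Hcls1 (-0.63), a cortactin relative of blood cells, and Nckap1l (-0.47), a subunit of the WAVE complex of blood cells, were lowest, and Wasf2 (0.21), another WAVE subunit, and Washc5 (0.17) highest. The formins, which start unbranched filaments, were also divided, from Diaph1 (-0.49) and Diaph2 (-0.36) to Inf2 (0.13). Of 9 compared formins 5 were lower, against 51.9% of all compared genes, and 4 level-adjusted, against 46.4%.

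Msn encodes moesin, the most common of the 3 ERM proteins in white blood cells. It read 6.49 on the array labelled Ssu72fl/fl (rank 903) and 7.31 on the Lysm-Cre array (rank 599), a difference of -0.81 and rank 38 from the lowest of all compared genes. Only 3 of its 100 neighbours were lower, and its level-adjusted difference of -0.45 was beyond the local spread of 0.26. A second Msn feature lay below the floor on both arrays, at 4.43 on the array labelled Ssu72fl/fl and 4.35 on the Lysm-Cre array, and has no direction. The other ERM genes were nearer to 0. Ezr (ezrin) read 7.02 on the array labelled Ssu72fl/fl and 7.25 on the Lysm-Cre array (-0.24), and Rdx (radixin) 5.34 on the array labelled Ssu72fl/fl and 5.48 on the Lysm-Cre array (-0.14). Msn and Ezr lay at similar mean signals, 6.90 and 7.14, where the trend is alike, and their differences were -0.58 apart, against a combined local spread of 0.38. Any shift that adds the same amount to both genes cancels in that gap. The adhesion receptor gene Cd44, which binds ERM proteins, was also lower (-0.54, local spread 0.29), and the ERM kinase gene Slk was highest of its role (0.23, local spread 0.24). In all, 7 of 9 compared membrane linkers were lower (median -0.17), against 51.9% of all compared genes. Level-adjusted, 6 of 9 were lower, against 46.4% of all.

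The bundling and coronin genes of the group lay below the median of their neighbours and within the local spread. Lcp1, the leukocyte plastin that bundles filaments, read 7.16 on the array labelled Ssu72fl/fl and 7.68 on the Lysm-Cre array, a difference of -0.52 with 40 of 100 neighbours lower still. Level-adjusted it was -0.10, inside a local spread of 0.31. Its crosslinking companions Flna (filamin A, -0.63) and Iqgap1 (-0.57) were lower by somewhat more, and Actn1 was at -0.30. Of 12 compared genes in this role 9 were lower (8 level-adjusted), with Actn3 highest (0.17). The shares lower among all compared genes were 51.9% as deposited and 46.4% level-adjusted. Pls3, a second plastin, was below the floor on both arrays. Lcp1 and Cfl1 had close mean signals, 7.42 and 7.37, and differed from each other by -0.42, which is about the combined local spread of 0.43. Coro1a, the coronin of white blood cells, read 6.29 on the array labelled Ssu72fl/fl and 6.74 on the Lysm-Cre array (-0.45), and 18 of its 100 neighbours were lower. It was -0.30 from their median, within the local spread of 0.35. Coro1b was at -0.17, Coro7 at 0.016 and Coro2b at 0.096, so that 5 of 7 coronins were lower as deposited, against 51.9% of all compared genes. Level-adjusted, 3 coronins were lower and 4 higher (median 0.066).

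Capg gave little signal. This capping protein of macrophages read 4.75 on the array labelled Ssu72fl/fl, in the upper 40.6% of features and 0.096 above the floor of 4.65, and 5.004 on the Lysm-Cre array, in the upper 23.4%. The difference of -0.26 was nearly the same after level adjustment (-0.25), and 1 of its 100 neighbours was lower, with a local spread of 0.13. Of 13 compared capping genes 10 were lower as deposited (median -0.17), against 51.9% of all compared genes. Level-adjusted, 10 were lower (median -0.093), against 46.4% of all. Tmod3 (-0.57, local spread 0.23), a pointed-end cap, and Add3 (-0.40, local spread 0.19) were lowest. The barbed-end capping subunits Capza2 (-0.33), Capza1 (-0.23) and Capzb (-0.17) were nearer to 0, and Add2 (0.090) was highest.

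**Figure D3:**
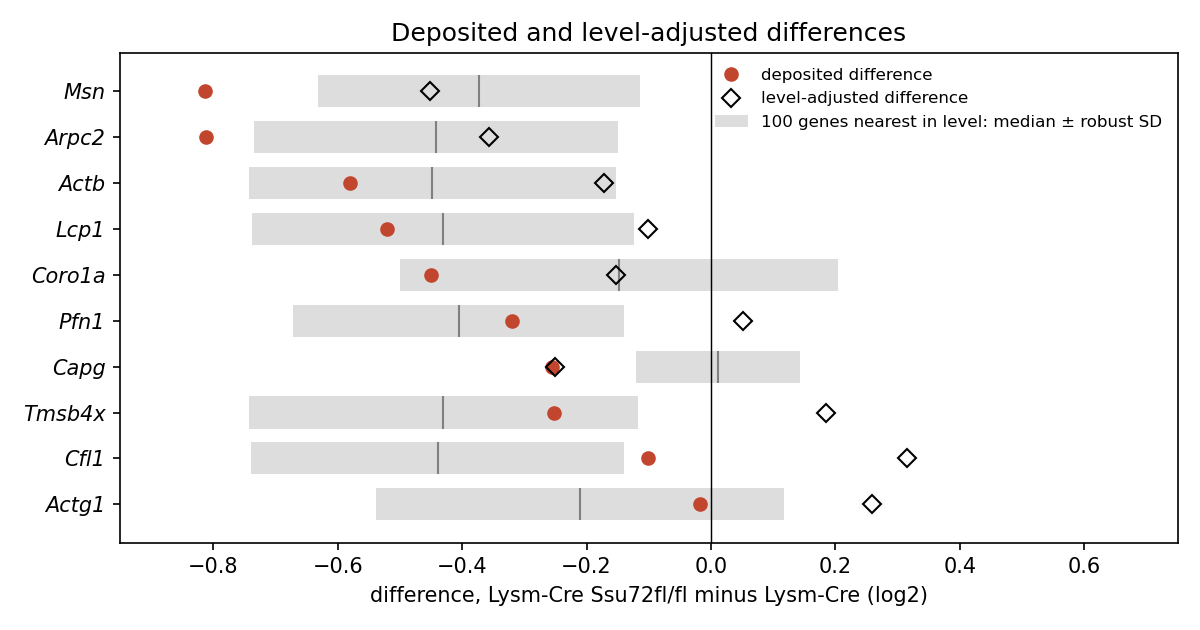
Difference of the 10 genes on the log2 scale (horizontal axis, array labelled Lysm-Cre Ssu72fl/fl minus Lysm-Cre array), as deposited (circles) and level-adjusted (diamonds). Grey bars give the median of the deposited differences of the 100 genes nearest in signal, plus and minus their robust SD. Msn, Arpc2 and Capg lie left of their bars, Cfl1 lies right of its bar, and the other 6 lie inside.

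Of the 10 genes 4 thus lay outside their local spread as deposited: Msn, Arpc2 and Capg below it and Cfl1 above it. The share of all compared genes outside their own local spread was not computed, so this count has no background. Set against Actb, which shares only a shift that is equal at all levels, Msn and Arpc2 were lower (-0.23 each), Lcp1 nearly equal (0.059), and Cfl1 (0.48) and Actg1 (0.56, chosen feature) higher. Relative to Actb, 7 of the other 9 genes were above 0. That count does not set the group apart, since most compared genes also lay above Actb. Its difference ranked 181 from the lowest among all 13015 compared genes and 131 from the lowest among the 856 over 6. The gaps to Actb hold part of the level trend, which was -0.41 at the level of Actb, -0.28 at that of Actg1 and -0.0053 at that of Capg. Level-adjusted, Actb minus Actg1 was -0.43, inside their combined local spread of 0.44.

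The wider actin pathway was taken as 13 groups of genes by role, 161 genes in all. Of these 152 were named on the array and 132 were compared. As deposited 90 were lower and 42 higher (68.2% lower), with a median of -0.10, against 51.9% and -0.0068 for all compared genes. At least 1.5-fold lower were 9 of the 132, against 1.37% of all compared genes, and none was 1.5-fold higher, against 0.315% of all and 1.52% of those over 6. Above a mean signal of 6 all 31 pathway genes were lower, where the background share was 77.0%, and 6 of them reached 1.5-fold, against 15.1%. Level-adjusted, the 132 divided into 69 lower and 63 higher (median -0.016), and the 31 into 16 lower and 15 higher. The level-adjusted share lower was 46.4% among all compared genes and 46.4% among those over 6. The 10 genes are part of the pathway counts, and without them 80 of 122 were lower as deposited.

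**Figure D4:**
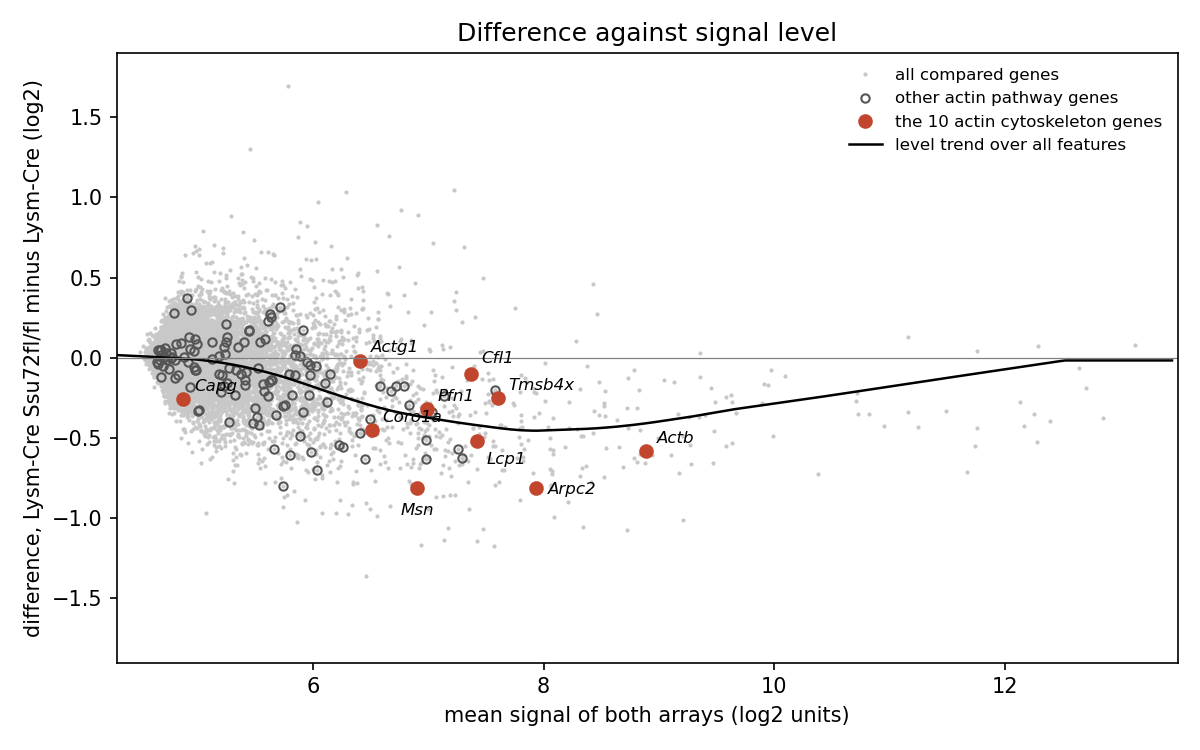
Difference (vertical axis, log2, array labelled Lysm-Cre Ssu72fl/fl minus Lysm-Cre array) against mean signal (horizontal axis, log2) of all 13015 compared genes (grey), the other actin pathway genes (open circles) and the 10 genes (filled). The black curve is the level trend over all features. Actg1, Cfl1, Tmsb4x and Pfn1 lie above the curve and the other 6 below it.

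Among myosins, the motors that pull on actin filaments, and tropomyosins, 13 of 15 compared genes were lower, against 51.9% of all compared genes. Level-adjusted, 11 of 15 were lower, against 46.4% of all. Tpm4, a tropomyosin that coats filaments, read 5.34 on the array labelled Ssu72fl/fl and 6.13 on the Lysm-Cre array (-0.80, local spread 0.26), Myo9b was at -0.70 and the non-muscle myosin heavy chain gene Myh9 at -0.63, while Myo1c (0.098) was highest. Of 9 adhesion adaptors 5 were lower and 3 level-adjusted, against the same shares of 51.9% and 46.4%. They ran from Vasp (-0.55, local spread 0.31), which lengthens filaments, and Fermt3 (-0.41) to Pxn (0.18) and Parvg (0.32, local spread 0.26).

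**Figure D5:**
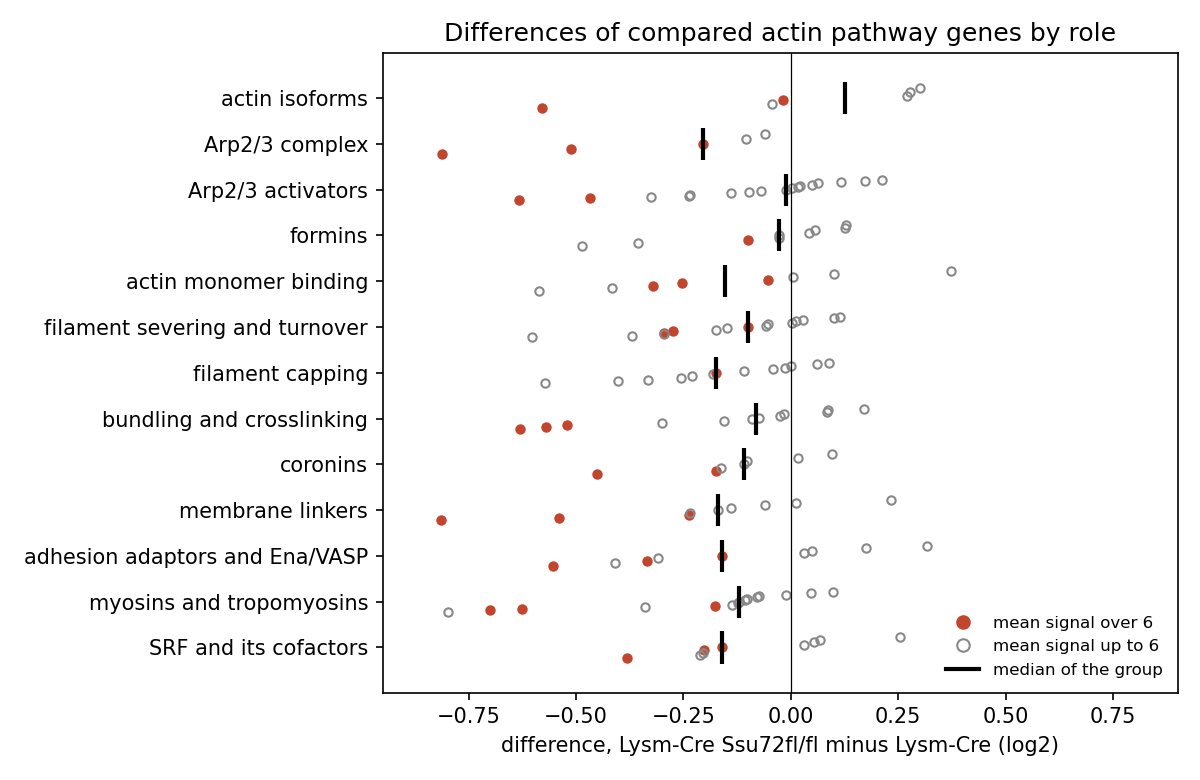
Difference on the log2 scale (horizontal axis, array labelled Lysm-Cre Ssu72fl/fl minus Lysm-Cre array) of every compared gene in the 13 role groups of the actin pathway. Filled points have a mean signal over 6, open points up to 6, and black bars mark group medians. All filled points lie left of 0, and the actin isoforms are the only group with a median right of 0.

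Serum response factor, encoded by Srf, activates many actin genes through the CArG box when its cofactors Mrtfa and Mrtfb are freed from G-actin. Srf read 5.76 on the array labelled Ssu72fl/fl and 5.51 on the Lysm-Cre array (0.25, local spread 0.23). Mrtfa was at 0.068 and Mrtfb at -0.21 (local spread 0.13). Known targets were divided as deposited: Tagln2 (-0.38), Cnn2 (-0.20), Fos (-0.20) and Zyx (-0.16) were lower, and Vcl (0.031) and Egr1 (0.053) were not. After level adjustment Tagln2 (-0.086) and Cnn2 (-0.12) stayed below 0, while Fos (0.23) and Zyx (0.047) did not. Of the 9 compared genes of this role 5 were lower as deposited, against 51.9% of all compared genes. Level-adjusted, 3 were lower and 6 higher (median 0.047), against 46.4% lower among all. Promoters of 9 of the 10 genes, 11 windows from 250 bases before to 50 after a transcription start, were read in RefSeq (GRCm38.p6); Actb is not among them. A CArG box was found in 1 window, that of Actg1, starting 90 bases before the start site, and in 1.63% of all 32851 promoter windows. The GC box GGGCGG, or its reverse complement CCGCCC, was in 9 of the 11 windows, from 8 of the 9 genes, and in 35.7% of all windows. The median GC content was 61.3% over the 11 windows and 52.7% over all windows, and its part in that share was not tested. TATAAA on either strand was in none of the 11 windows and in 13.6% of all. The windows are shown for the pair with the largest and the pair with the smallest differences, with CArG and GC boxes in capitals, where GC boxes may overlap each other but none overlaps the CArG box. They lie at chrX:96095795-96096094 (plus strand) for Msn, chr1:74236267-74236566 (plus strand) for Arpc2, chr19:5490205-5490504 (plus strand) for Cfl1 and chr11:120348446-120348745 (minus strand) for Actg1.
Msn: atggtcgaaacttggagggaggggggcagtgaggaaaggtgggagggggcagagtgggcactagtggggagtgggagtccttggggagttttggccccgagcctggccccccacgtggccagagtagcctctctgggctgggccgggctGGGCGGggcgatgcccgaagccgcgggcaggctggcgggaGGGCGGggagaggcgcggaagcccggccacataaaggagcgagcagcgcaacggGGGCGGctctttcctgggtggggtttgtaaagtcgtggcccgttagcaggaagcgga
Arpc2: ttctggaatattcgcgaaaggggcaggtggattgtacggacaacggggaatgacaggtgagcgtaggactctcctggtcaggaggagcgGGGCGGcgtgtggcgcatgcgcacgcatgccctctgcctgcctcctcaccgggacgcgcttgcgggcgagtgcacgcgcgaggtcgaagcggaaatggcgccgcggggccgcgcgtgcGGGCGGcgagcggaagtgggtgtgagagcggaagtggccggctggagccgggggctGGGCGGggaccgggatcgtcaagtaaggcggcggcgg
Cfl1: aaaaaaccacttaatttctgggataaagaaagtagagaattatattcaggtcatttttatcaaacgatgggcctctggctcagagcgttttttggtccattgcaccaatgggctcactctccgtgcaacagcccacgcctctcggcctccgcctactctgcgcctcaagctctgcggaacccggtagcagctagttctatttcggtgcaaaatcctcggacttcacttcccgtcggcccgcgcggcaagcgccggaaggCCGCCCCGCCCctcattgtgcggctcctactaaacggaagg
Actg1: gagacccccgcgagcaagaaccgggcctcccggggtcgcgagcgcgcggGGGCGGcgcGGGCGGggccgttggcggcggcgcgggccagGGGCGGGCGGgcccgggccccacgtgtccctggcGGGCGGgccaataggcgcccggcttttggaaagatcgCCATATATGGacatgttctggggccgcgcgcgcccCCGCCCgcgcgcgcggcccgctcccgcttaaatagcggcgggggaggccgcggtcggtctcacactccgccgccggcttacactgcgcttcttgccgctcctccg
GC boxes occur 3 times in each window of the lower pair, 2 times in that of Cfl1 and 6 times in that of Actg1. A match describes the letters and not binding.

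Marker genes were read as a check of the cell type label. For each marker count, the share lower among all compared genes was 51.9% as deposited and 46.4% level-adjusted. Of 11 compared alveolar macrophage markers 10 were lower (median -0.30), and level-adjusted 6 were lower (median -0.0070). Of these 11, 6 had a mean signal over 6, where 77.0% of compared genes were lower. Single alveolar macrophage markers ran from 5.09 (Siglecf) to 9.30 (Chil3) on the array labelled Ssu72fl/fl. On the Lysm-Cre array they ran from 5.06 (Fabp4) to 9.42 (Chil3). Siglecf, Fabp5 and Fabp4 had the lowest mean signals of the 11, and Fabp4 was the 1 that was higher (0.19). Actin genes such as Coro1a, Lcp1 and Msn are expressed by white blood cells in general. Of 9 compared markers of interstitial macrophages and monocytes 8 were lower (median -0.39), and 8 were lower after level adjustment (median -0.28), with a summed log2 level of 51.4 on the array labelled Ssu72fl/fl and 55.4 on the Lysm-Cre array. Single markers ran from 4.52 (Ly6c2, below the floor) to 8.19 (H2-Ab1) on the array labelled Ssu72fl/fl and from 4.76 (Ly6c2) to 9.26 (H2-Ab1) on the Lysm-Cre array. Their part in the actin gene differences was not tested, and fewer cells of a type cannot be told apart from less RNA per cell. Of 8 T and NK cell markers 4 were compared, with a summed level of 20.1 on the array labelled Ssu72fl/fl and 19.0 on the Lysm-Cre array, and Cd3e and Cd3g were below the floor on both. Of these 4, 3 were higher: Lat, a signalling adaptor of T cells, read 5.56 on the array labelled Ssu72fl/fl and 4.87 on the Lysm-Cre array (0.68, local spread 0.21), Cd3d was at 0.24 (local spread 0.11) and Cd4 at 0.055 (local spread 0.053), the last 2 set against the floor. Cd8a was at -0.014. Neutrophil markers summed to 24.3 on each array over 5 compared genes, with Ly6g and Cxcr2 below the floor on both. Of 4 compared B cell markers 2 were lower, with sums of 21.9 on the array labelled Ssu72fl/fl and 22.3 on the Lysm-Cre array. Ighm had the highest signal of the 4, at 6.88 on the array labelled Ssu72fl/fl and 7.46 on the Lysm-Cre array. Its difference was -0.58 (local spread 0.28), and -0.19 level-adjusted. Cd79b was at -0.018, Pax5 at 0.058 and Cd79a at 0.17. Of 7 alveolar type 2 cell markers 6 were lower (5 level-adjusted), with sums of 40.4 on the array labelled Ssu72fl/fl and 41.6 on the Lysm-Cre array, and Sftpc read 8.35 on the array labelled Ssu72fl/fl and 8.71 on the Lysm-Cre array.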

How the data were processed

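The deposited values are log2 signals made by the authors, 1 per feature and array. Their range of 4.23 to 13.5 was taken to mean a log2 scale. Per the submitters' processing notes MAS5 was used, with no role given. How background, normalization and centring were handled is not given in the sources used. The platform annotation gives 23521 of 33793 features a single gene symbol, 1814 more than 1 and 8458 no symbol, and 23328 were matched by Entrez identifier to RefSeq (GRCm38.p6). Array coordinates are not used here.

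For genes outside the 10, features with 1 symbol were used and the feature with the highest mean signal was kept per gene. Values below the 50th percentile of all values, 4.65, were set to it, and genes below it on both arrays were left out. The level trend was a lowess curve (statsmodels 0.14.6, span 0.3) through medians of level bins 0.05 wide with at least 10 features, fitted on all features. The local median and spread use the 100 nearest genes, the spread being 1.4826 times the median absolute deviation. The trend and the local median were tested on simulated data. No test was run, since each genotype had 1 array, and precision is limited by that number.

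The 10 genes, the role groups, marker lists and settings were chosen with earlier results of these data known. Named genes are the 10, members at either end of each role group, role group members in the upper 5% by signal, relatives of the 10, Ssu72 and markers. One role group of the actin pathway is not reported here. The gene pairs and promoter motifs were picked after values were seen. Alternatives were median centring, quantile normalization, both trend removals, other feature choices, other floors (25th and 75th percentile, none) and thresholds of 1.2-fold and 2-fold. The Actg1 feature at its own locus, with flanking genes within 1000000 bases in RefSeq, was added after the data were seen.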

Additional observations from a re-analysis of the deposited data

How the results depend on the processing

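Signs of 4 of the 10 genes depended on how the level trend was treated. After quantile normalization Actg1 was at 0.24, Cfl1 at 0.29, Pfn1 at 0.094 and Tmsb4x at 0.18. With the lowess trend removed they were at 0.26, 0.31, 0.052 and 0.18, and with the median of the 100 nearest genes removed at 0.19, 0.34, 0.085 and 0.18, in the same order. Under each of these 3 settings 6 genes were lower and 0 reached 1.5-fold, with medians of -0.13, -0.13 and -0.11. Actb, Arpc2, Coro1a, Lcp1, Capg and Msn were below 0 under all settings run. The mean of all features left 1 gene at 1.5-fold. A threshold of 1.2-fold counted 6 genes and 2-fold counted 0, against 51.3% and 1.17% of compared genes with a mean signal over 6. With the feature at its own locus, Actg1 was at 0.15 and 9 genes were lower. Median centring and the use of features with 1 symbol changed no direction. With median centring 3 genes reached 1.5-fold, Actb (-0.59) being added to Arpc2 and Msn. Over the 132 wider pathway genes, the count lower ran from 69 with the lowess trend removed to 94 with median centring. It was 79 of 106 with the floor at the 75th percentile and 98 of 152 with none. The share lower among all compared genes was computed only as deposited (51.9%) and with the lowess trend removed (46.4%). Counts under the other settings thus have no background, and a higher floor keeps genes of higher signal, which more often read lower on the whole array. The cause of the shifts between settings was not tested beyond the settings' own construction. No paired analysis was possible because each genotype had 1 array. Values near the floor, as for Capg, limit what can be read.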

Other observations

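Of 12 compared tubulin and intermediate filament genes 7 were lower and 5 higher (median -0.030), against 51.9% lower among all compared genes. Level-adjusted, 7 were lower (median -0.014), against 46.4% of all. Vim, the intermediate filament protein vimentin, read 9.22 on the array labelled Ssu72fl/fl and 9.58 on the Lysm-Cre array, a difference of -0.36 that was -0.0052 after level adjustment. The beta-tubulin genes went both ways at similar signals. Tubb5 read 6.50 on the array labelled Ssu72fl/fl and 7.10 on the Lysm-Cre array (-0.61, local spread 0.25), while Tubb6 read 6.25 on the array labelled Ssu72fl/fl and 6.02 on the Lysm-Cre array (0.23, local spread 0.29; level-adjusted 0.44). Lmnb1, of the nuclear lamina, was at -0.31 and Tubb3 at 0.18.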
